A study of Homo sapiens with 4 samples.

Results

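The regions described here are binding clusters of the RNA-editing enzyme ADAR that lie in nuclear transfer RNA (tRNA) genes of K562 cells, a human erythroleukaemia line. A cluster was taken when its midpoint fell within the GRCh38 span of a gene that RefSeq annotates as tRNA, with mitochondrial genes left out, and genes were grouped by the amino acid in their symbol. This gave 144 of 534161 clusters in replicate 1, 80 of 155848 clusters in replicate 2, and 6 of the 1717 peaks (0.349%) in the authors' list of peaks reproducible between replicates. Of 429 nuclear tRNA genes on assembled chromosomes, 75 (17.5%) held a cluster in at least 1 replicate. Replicate 1 had clusters in 72 genes and replicate 2 in 52. The 2 lists shared 49 of these genes, which is most of each list.

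The study measured ADAR binding by enhanced crosslinking and immunoprecipitation (eCLIP), in which RNA is fixed to protein by ultraviolet light, trimmed with RNase, pulled down with an antibody, and read from adapter-ligated cDNA. The 2 immunoprecipitation (IP) libraries used an ADAR1 antibody on untreated K562 cells crosslinked at 254 nm with 400 mJ per square cm, and the 2 input libraries are labelled with the same line and treatment and no antibody; a gel region reaching 75 kDa above the protein was cut out. K562 is a single established line, carrying no deletion or transgene by the labels, and nothing in the labels says that replicates came from separate cultures, so a difference between them may be technical. The expected cell markers were present: all 7 erythroid genes examined held clusters in both replicates, and none of 5 hepatocyte genes did in either.

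A tRNA carries an amino acid to the ribosome and reads its codon with the anticodon in the middle of the molecule. RNA polymerase III makes it as a precursor with a 5′ leader and a 3′ trailer, and some precursors hold an intron next to the anticodon; these pieces are removed, and bases are then modified densely. Many tRNA sequences have identical or near-identical gene copies. ADAR turns adenosine into inosine where RNA is base-paired with RNA, whereas inosine at the first anticodon position of tRNA is made by related enzymes, ADAT2 with ADAT3, and inosine beside the anticodon of alanine tRNA by ADAT1.

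The tRNA clusters did not hold one position relative to input in the 2 replicates. Each cluster carries the authors' own log2 ratio of IP to input and its own −log10 p, and a cluster is called enriched here when both are at least 3. In replicate 1, 30 of the 144 tRNA clusters (20.8%), in 12 genes, were enriched, against 1.39% of all clusters. In replicate 2, 0 of the 80 tRNA clusters were enriched, against 12.8% of all clusters. Thus enriched clusters were more frequent among tRNA clusters than in the whole list in replicate 1 and less frequent in replicate 2. With 0 enriched tRNA clusters in replicate 2, no gene could be enriched in both.

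The medians moved the same way. The median log2 fold of tRNA clusters was 1.16 in replicate 1, against 0.07 over all clusters, a difference of 1.08. In replicate 2 it was 0.14 for tRNA clusters, against 1.85 over all clusters, a difference of −1.72. The replicate 2 difference changed with the rule for assigning clusters. With only clusters wholly inside the gene, the tRNA median was 1.69 in replicate 1 and 1.82 in replicate 2, the latter near the 1.85 of all clusters. That rule drops clusters that reach past a gene end, among them TRN-GTT2-2 (−3.26) and TRD-GTC2-6 (−2.78) in replicate 2. The replicate 2 clusters it keeps are mostly in arginine genes and the selenocysteine gene TRU-TCA1-1. The tRNA folds ranged from −4.28 to 6.55 in replicate 1 and from −3.90 to 3.18 in replicate 2, so in both replicates some tRNA genes lay well under input and others above it. The value of 3.18 came from a cluster on the strand opposite to the other clusters of its gene. The next highest fold of replicate 2 was 2.88. Folds below 0, meaning fewer IP than input reads after scaling, made up 47 tRNA clusters (32.6%) in replicate 1, against 47.0% of all clusters, and 39 (48.8%) in replicate 2, against 9.68% of all clusters.

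Input depth moves with these medians, since tRNA clusters rest on more input reads than most clusters. The number of reads in a cluster was recovered from the ratio and the p-value where these allowed it. Among clusters whose IP to input read ratio, in lowest terms, has at least 5 input reads, the tRNA median was 1.03 (109 clusters) against −0.60 for all such clusters in replicate 1. In replicate 2 it was −0.01 for tRNA (73 clusters) against 0.53 for all such clusters. Among such clusters the gap between tRNA and the whole list was thus larger in replicate 1 and smaller in replicate 2 than over clusters of any depth, with the sign kept in both; the part that input depth plays in it was not tested.

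**Figure D1:**
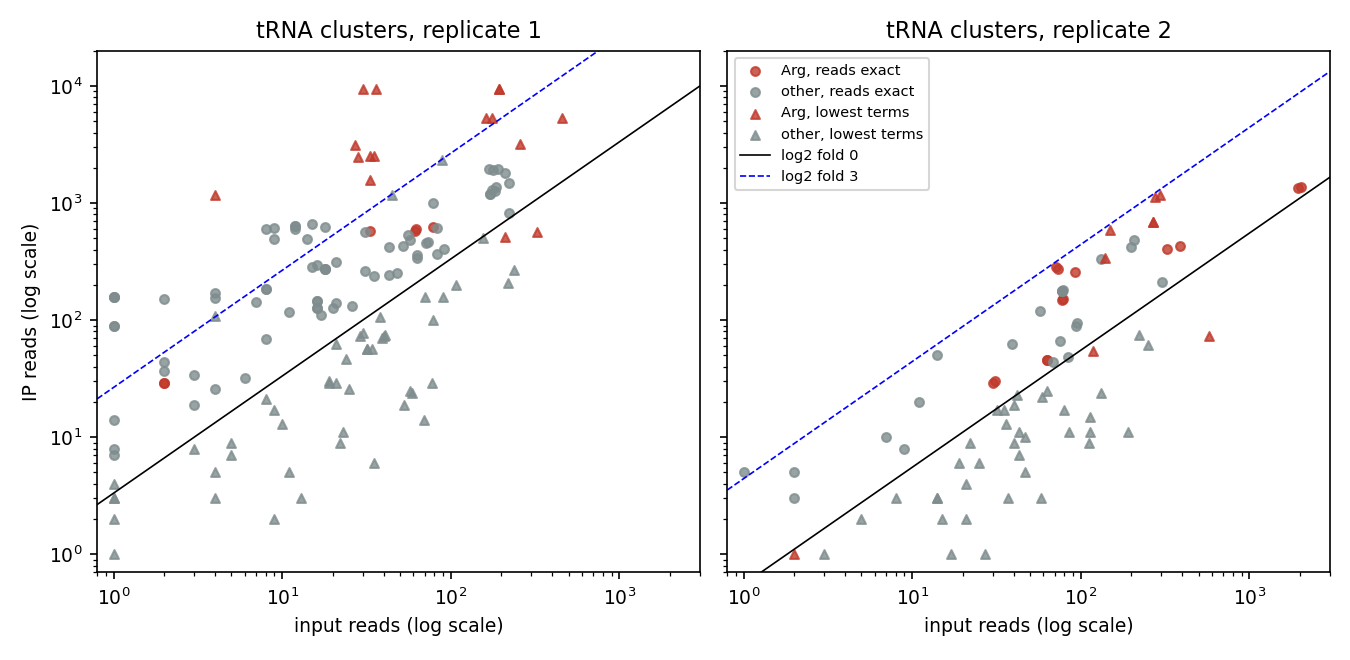
IP reads against input reads for each tRNA cluster (both axes logarithmic) in replicate 1 on the left and replicate 2 on the right; arginine genes are red and other genes grey. Circles are exact read numbers and triangles are ratios in lowest terms, for which the reads are that number or a multiple. The solid line is equal IP and input after scaling by depth and the dashed line a log2 fold of 3. In replicate 1, 30 clusters lie above the dashed line. In replicate 2 the single cluster above it (TRE-TTC4-2, 5 IP reads, 1 input read) misses the p threshold. That cluster lies on the strand opposite to the other clusters of its gene.

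The arginine tRNA genes, as a group, stood above the other tRNA genes in both replicates. Clusters were found in 9 of 26 arginine genes, and all 9 had them in both replicates. The 22 arginine clusters of replicate 1 had a median log2 fold of 3.26, against 0.98 for the 122 clusters of other tRNA genes. In replicate 2 the 22 arginine clusters had a median of 1.5, against −0.52 for the 58 other clusters. Counted per gene by its highest cluster, so that a gene with many adjoining clusters weighs once, the median was 3.31 for arginine genes against 0.16 for the others in replicate 1, and 0.81 against −1.11 in replicate 2. The median over all clusters of the list was 0.07 in replicate 1 and 1.85 in replicate 2. By either count, arginine thus lay above the whole list in replicate 1 and below it in replicate 2. Some amino acids with clusters in 1 or 2 genes had higher cluster medians: glutamine (5.57) and histidine (3.69) in replicate 1, and selenocysteine (2.07) and initiator methionine (1.93) in replicate 2. Per gene, only glutamine (5.57) lay above arginine in replicate 1. In replicate 2, selenocysteine (2.19), initiator methionine (1.93) and cysteine (1.44, 3 genes) lay above it per gene, and valine (0.81) equalled it. The order of arginine over the rest was the same in both replicates, although only replicate 1 held enriched clusters, 12 of them in 5 arginine genes and 18 in 7 other genes. Ranked by its highest cluster, an arginine gene took 3 of the top 5 places in each replicate and 7 of the top 20 in each, out of 72 and 52 ranked genes. Of the 17 tRNA clusters whose −log10 p stood at the ceiling of 400 in replicate 1, 14 were in 7 arginine genes and 3 in the serine gene TRS-GCT3-1. All 6 such clusters of replicate 2 were in 2 arginine genes. Over all clusters, 0.032% stood at the ceiling in replicate 1 and 0.112% in replicate 2. Not all clusters at the ceiling were enriched, and arginine clusters with log2 folds of 1.82 and 1.89 reached it in replicate 1.

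**Figure D2:**
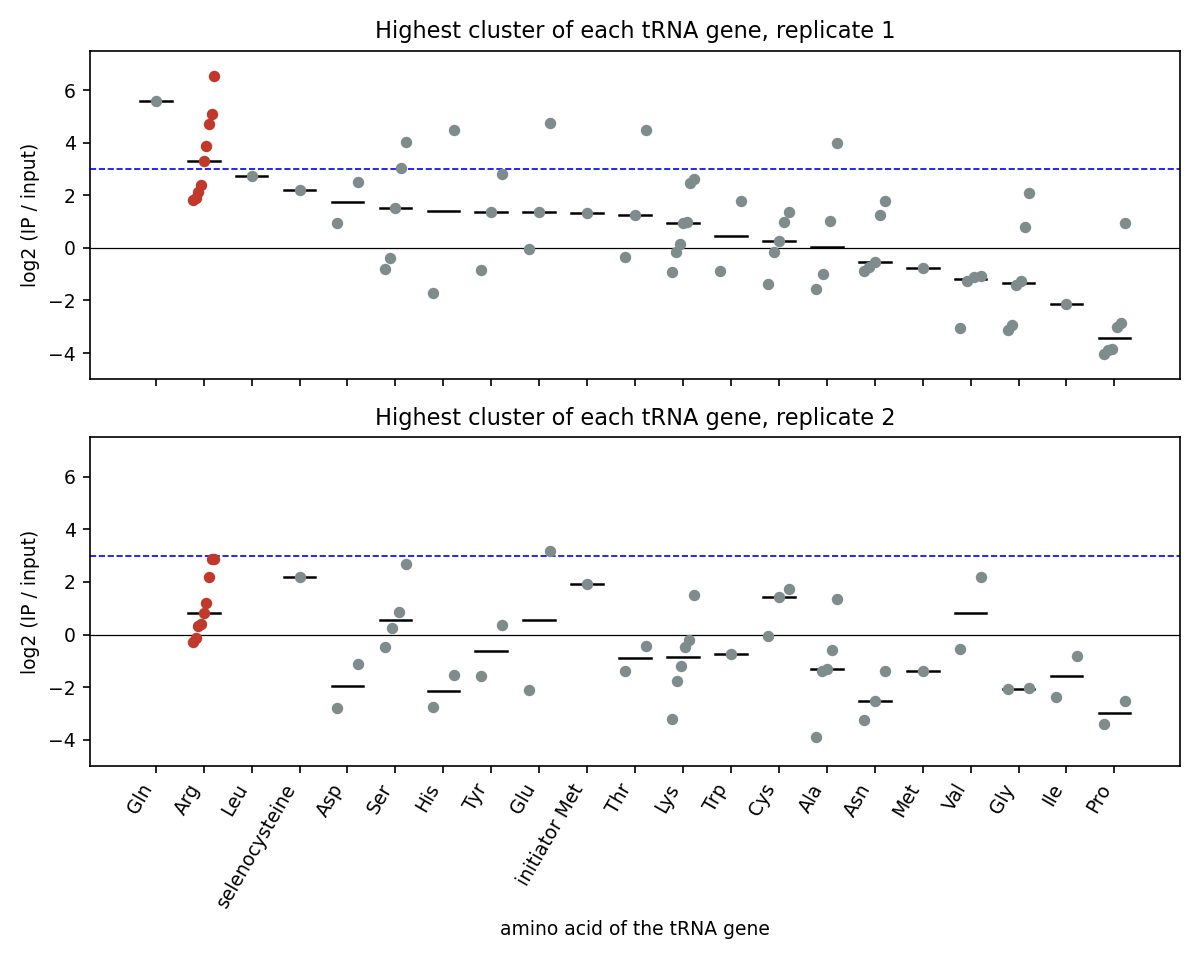
Log2 ratio of IP to input (vertical axis) of the highest cluster of each tRNA gene, by amino acid in order of the replicate 1 median, with replicate 1 above and replicate 2 below. Each point is a gene, short bars are medians over genes, the dashed line is a log2 fold of 3, and arginine genes are red; all 9 arginine genes lie above 0 in replicate 1, and 7 of the 9 in replicate 2.

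The highest fold of any tRNA cluster belonged to TRR-TCG3-1, an arginine tRNA gene with anticodon TCG on the forward strand of chromosome 17, bases 75035113 to 75035185 (GRCh38), inside the span of the protein-coding gene KCTD2. Its highest cluster in replicate 1 had a log2 fold of 6.55, from 9361 IP reads against 30 input reads in lowest terms (95% exact interval 6.04 to 7.12; such intervals cover counting error only). In replicate 2 its highest cluster had a log2 fold of 0.81, from 30 IP reads against 31 input reads (interval 0.03 to 1.58). The intervals do not overlap, so the same gene was at the top of one replicate and close to input in the other. Its neighbour in KCTD2, TRR-CCT1-1 (bases 75033906 to 75033978), an arginine gene with anticodon CCT, behaved alike. TRR-CCT1-1 reached 4.72 in replicate 1, with 2459 IP reads against 28 input reads in lowest terms, and 0.40 in replicate 2, with 46 IP reads against 63 input reads.

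The other arginine genes at the top were high among tRNA genes in both replicates, with no enriched cluster in replicate 2. Over all replicate 2 clusters the median log2 fold was 1.85 and the 75th percentile 2.85. TRR-TCT3-2, on chromosome 11 from 59551294 to 59551379, had a log2 fold of 5.11 in replicate 1 (3113 IP reads against 27 input reads in lowest terms) and of 2.87 in replicate 2 (287 IP reads against 71 input reads). TRR-TCG1-1, on chromosome 15 from 89335073 to 89335145, reached 3.89 in replicate 1 and 2.88 in replicate 2. TRR-TCT1-1, on chromosome 1 from 93847573 to 93847657, reached 3.31 in replicate 1 and 2.20 in replicate 2. Both TCT genes belong to a family in which human precursors carry an intron. The remaining 4 arginine genes peaked between 1.82 and 2.41 in replicate 1 and between −0.29 and 1.19 in replicate 2, so arginine genes differed widely among themselves.

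The authors' reproducible list held 6 tRNA peaks in 3 genes, and 4 of them were in arginine genes. TRR-TCG1-1 had 3 peaks with log2 folds of 3.35 to 3.37 in that list, TRR-TCT3-2 had 1 at 3.97, and TRS-AGA2-6 had 2, at 3.25 and 3.03. TRS-AGA2-6 is a serine tRNA gene on the reverse strand of chromosome 17, from 8226610 to 8226691, inside the span of CTC1. Each of the 6 intervals was identical to an enriched replicate 1 cluster. None overlapped an enriched replicate 2 cluster, and tRNA genes held no such cluster in that replicate. The overlapping replicate 2 folds ran from 0.68 to 2.88. The median log2 fold of the tRNA peaks was 3.36, against 4.62 over all reproducible peaks, and 1316 of the 1717 peaks had a higher fold than the highest tRNA peak.

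Outside arginine, 7 genes were enriched in replicate 1, and 3 of them rested on 1 or 2 input reads in their highest cluster. TRQ-TTG2-1, a glutamine gene, reached 5.57 on 158 IP reads against 1 input read (interval 3.07 to 10.88), and it had no cluster in replicate 2. TRE-TTC4-1, a glutamate gene, reached 4.74 on 89 IP reads against 1 input read (interval 2.23 to 10.06), again with no cluster in replicate 2. An input of 1 read may stand in for none in the authors' values, so these folds are loosely fixed, as their intervals show. TRT-AGT1-2, a threonine gene in CTC1 beside TRS-AGA2-6, reached 4.50 on 151 IP reads against 2 input reads and had no replicate 2 cluster.

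The other enriched genes had clusters in both replicates. TRH-GTG1-8, a histidine gene, stood at 4.50 in replicate 1, from 602 IP reads against 8 input reads, and at −1.54 in replicate 2, from 4 IP reads against 21 input reads in lowest terms. TRA-TGC2-1, an alanine gene, stood at 4.0 in replicate 1 (637 IP reads against 12 input reads) and at 1.37 in replicate 2 (10 IP reads against 7 input reads). TRS-AGA2-6 reached 4.03 in replicate 1 and 2.69 in replicate 2, and the serine gene TRS-GCT3-1 reached 3.03 in replicate 1 and 0.85 in replicate 2. These 4 genes were picked by a log2 fold of at least 3 in replicate 1. In replicate 2 the highest fold on the commoner strand of any tRNA gene was 2.88, so a lower replicate 2 value was fixed by the selection. For the histidine gene replicate 2 lay on the other side of input.

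Over the 49 genes with clusters in both replicates, the highest cluster had the greater fold in replicate 1 for 37 genes. The medians of these highest folds were 1.03 in replicate 1 and −0.48 in replicate 2, and the median difference within a gene was 1.04. Across these genes the folds of the replicates were related, with Pearson's r of 0.56 and Spearman's rho of 0.56, and without the arginine genes (40 genes) r was 0.46 and rho 0.42. These are descriptions across genes, which share libraries and in part sequence and are not independent. By sign, 17 genes were above input in both replicates, 18 were below in both, 13 were above in replicate 1 alone and 1 in replicate 2 alone. Among the 17, TRE-TTC4-2 was above input in replicate 2 only through a cluster on the opposite strand, with its other cluster at −0.015. A threshold of 2 on the log2 fold, with the same p threshold, was passed in both replicates by 5 genes: TRR-TCG1-1, TRR-TCT1-1, TRR-TCT3-2, TRS-AGA2-6 and TRU-TCA1-1. In replicate 2 a fold of 2 is close to the median of 1.85 over all clusters. The share of all clusters that pass it is not given here.

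**Figure D3:**
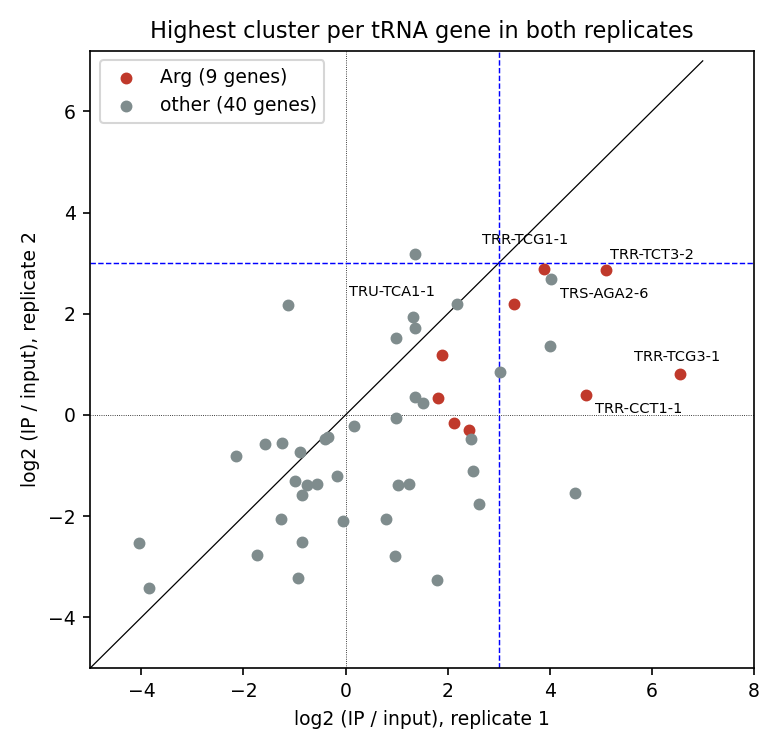
Log2 ratio of IP to input of the highest cluster of each tRNA gene in replicate 1 (horizontal axis) and replicate 2 (vertical axis), for the 49 genes with clusters in both; arginine genes are red. The solid line marks equality, dotted lines mark input level and dashed lines a log2 fold of 3; 37 genes lie below the line of equality.

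TRU-TCA1-1 encodes the selenocysteine tRNA, which inserts selenocysteine at recoded UGA codons, and it is described here because of its many clusters, a choice made after its values were seen. It lies on chromosome 19 from 45478601 to 45478687 and held 9 clusters in replicate 1 and 7 in replicate 2, the most of any tRNA gene in each. Its highest log2 fold was 2.19 in both replicates, from 274 IP reads against 18 input reads in replicate 1 and 333 IP reads against 132 input reads in replicate 2. The 2 highest values came from opposite ends of the gene, the 5′ end in replicate 1 and the 3′ end in replicate 2, and the replicate 1 cluster at the 3′ end stood at 1.09. Its clusters ran along the whole gene, with a median of 1.15 in replicate 1 and 2.07 in replicate 2, and all of them lay between 1.05 and 2.19 in replicate 1 and between 1.94 and 2.19 in replicate 2.

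Lysine and serine followed arginine in the number of clusters over both replicate lists, with 26 and 18 against 44 for arginine. The 17 lysine clusters of replicate 1, in 7 of 27 genes, had a median log2 fold of 0.43, and the 9 of replicate 2 had a median of −0.72; none was enriched. The 12 serine clusters of replicate 1, in 5 of 26 genes, had a median of 2.45, and the 6 of replicate 2 a median of 0.74. Phenylalanine was the single amino acid with no cluster, over 11 genes.

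Proline genes stood at the low end. Among 6 proline genes with replicate 1 clusters, 5 were below input, with a median log2 fold over clusters of −3.85, and both genes with replicate 2 clusters were below it, with a median of −2.98. TRP-TGG3-1 stood at −4.04 in replicate 1 (14 IP reads against 69 input reads in lowest terms) and at −2.54 in replicate 2 (2 against 21). TRP-AGG2-5 stood at −3.85 in its higher replicate 1 cluster and −4.28 in its lower one, and at −3.42 in replicate 2. TRP-CGG1-3, TRG-CCC1-2 (glycine) and TRV-AAC2-1 (valine), the other genes among the lowest 5 of replicate 1, stood at −3.90, −3.14 and −3.03, with no replicate 2 cluster.

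The lowest genes of replicate 2 were largely others. TRA-AGC8-2, an alanine gene, stood at −3.90 there, on a ratio of 1 IP read to 27 input reads in lowest terms, and had no replicate 1 cluster. TRN-GTT2-2, an asparagine gene, stood at −3.26 in replicate 2 (11 IP reads to 190 input reads in lowest terms) and at 1.79 in replicate 1 (1947 IP reads against 169 input reads). TRD-GTC2-6, an aspartate gene, stood at −2.78 in replicate 2 and 0.96 in replicate 1, and the lysine gene TRK-CTT3-1 at −3.23 in replicate 2 and −0.93 in replicate 1. For the asparagine and aspartate genes the replicates fell on opposite sides of input.

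The families were also sorted by what is known of their processing and shape, as follows. Families whose anticodon gene sequence starts with A, the substrates of ADAT2 with ADAT3, had a median log2 fold of 0.96 over 25 clusters in replicate 1, against 1.25 for the other families, and of −0.52 over 12 clusters in replicate 2, against 0.31. Families known to hold introns had 2.12 in replicate 1, against 1.09 for the other families, and 1.25 in replicate 2, against −0.04. Those values came largely from the arginine TCT genes. With arginine genes left out of both sides, a choice made after seeing the data, the intron families had 0.26 over 6 clusters in replicate 1, against 0.98, and −0.38 over 4 clusters in replicate 2, against −0.52, so the order turned in replicate 1. Leucine, serine and selenocysteine tRNAs, which have a long variable arm, had 2.17 in replicate 1, against 0.99 for the rest, and 2.07 in replicate 2, against −0.22. Without TRU-TCA1-1, leucine and serine had 2.60 in replicate 1 and 0.74 in replicate 2, so the replicate 2 value was smaller without that gene and still above that of the rest.

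Gene copies that the naming scheme gives the same mature sequence often differed in their folds. In replicate 1, 9 sets had clusters in more than 1 copy, and the highest folds of the top and bottom copy differed by a median of 2.65, with a range of 0.83 to 6.23. In replicate 2 the same difference had a median of 1.67 over 7 sets, with a range of 0.08 to 3.33. TRH-GTG1-8 stood at 4.50 and its copy TRH-GTG1-7 at −1.73 in replicate 1. TRS-AGA2-6 stood at 4.03 and TRS-AGA2-2 at −0.40 in replicate 1, and at 2.69 and −0.47 in replicate 2. The −0.47 is a ratio of 2 IP reads to 5 input reads in lowest terms. Its interval, −3.86 to 2.14, overlaps the 1.81 to 3.66 of TRS-AGA2-6. By the number of copies that share a name stem, clusters of single-copy genes had a median of 1.51 in replicate 1 and 0.80 in replicate 2, against 0.96 and −1.16 for genes with 3 or more copies. The single-copy genes include most arginine genes with clusters and TRU-TCA1-1, and the medians were not taken without these. The sources used here do not say how reads that match several copies were placed, so the value of any single gene copy is uncertain.

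All 30 enriched clusters and all 6 reproducible tRNA peaks lay in tRNA genes inside the span of another annotated gene. Of the 429 tRNA genes, 118 lay inside another gene, and 45 of the 72 genes with a replicate 1 cluster did. The 87 clusters of those 45 genes had a median log2 fold of 1.77, against 0.76 for the 57 clusters of genes outside any other gene, whose highest fold was 2.73 in that replicate. In replicate 2 the medians were 0.31 over 50 clusters inside another gene and −0.12 over 30 clusters outside. Most arginine genes with clusters lay inside another gene, and these medians were not taken without arginine, so its part in the difference was not tested. The strand of the host genes was not used. Around the 12 enriched genes, no cluster on the same strand lay 101 to 1000 bases away in either replicate, except in or beside another tRNA gene. Most of the other tRNA genes with clusters had none there either, so this does not set the enriched genes apart.

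Clusters lay mainly on the 3′ part of the tRNA. The midpoint was in the 3′ side of the gene for 102 of 144 clusters (70.8%) in replicate 1 and for 64 of 79 clusters (81.0%) in replicate 2, where 1 cluster on the opposite strand was left out. The same held for 25 of the 30 enriched clusters. The first 5% of the gene was covered in 13.9% of genes with clusters in replicate 1 and 21.2% in replicate 2, against 97.2% and 96.2% in the stretch from 80 to 85%. Gene strand was taken from the commoner strand of the clusters themselves. Counted from the 5′ end of the gene, the median first base was 35 and the median last base 66 in replicate 1. In replicate 2 these separate medians were 33 and 79. tRNA clusters were narrow. Their median width was 22 bases against 47 for all clusters in replicate 1, and 34.5 against 59 in replicate 2. Of them, 67 and 28 directly adjoined or overlapped the cluster before them in the same gene, so neighbouring values share reads.

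**Figure D4:**
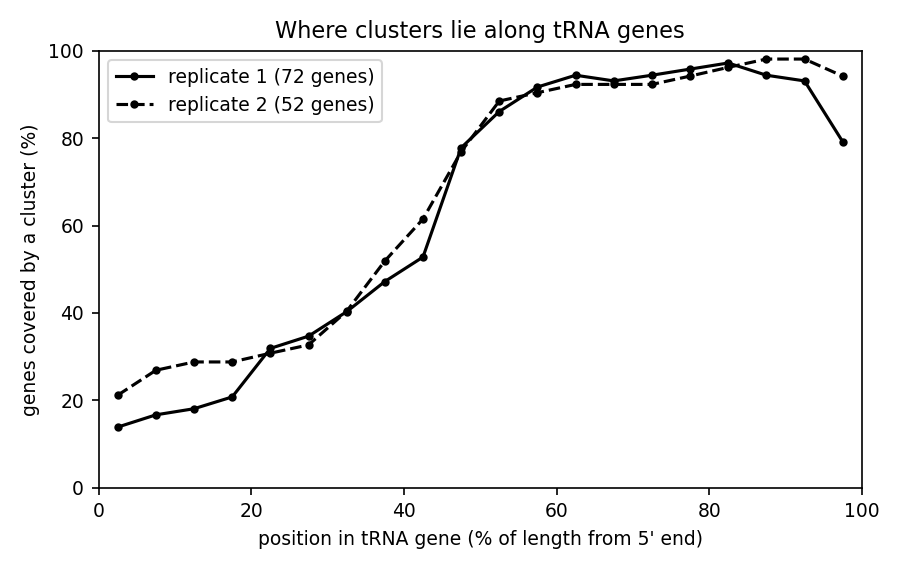
Share of tRNA genes with clusters (vertical axis, %) that a cluster covers at each position along the gene (horizontal axis, % of gene length from the 5′ end, in steps of 5%), for 72 genes in replicate 1 and 52 in replicate 2. Coverage is 13.9% and 21.2% at the 5′ end and above 90% over most of the second part of the gene.

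Clusters just beyond tRNA genes were almost all on the 3′ side. Within 100 bases of a tRNA gene and in none, replicate 1 had 36 clusters downstream, beside 32 genes, and 1 upstream; replicate 2 had 8 downstream and 1 upstream. All the downstream clusters were on the strand of the tRNA clusters, and 17 of the 36 and 5 of the 8 overlapped the end of the gene itself. They ended a median of 11 bases past the gene end in replicate 1 and 5.5 bases in replicate 2, where the 3′ trailer of the precursor lies. Of the 36, 9 were enriched, and they lay beside 7 genes that also had enriched clusters inside.

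Set beside other small RNA genes, nuclear tRNA clusters had an intermediate median. In replicate 1 the median log2 fold was 1.16 for nuclear tRNA clusters, against 4.03 for 14 mitochondrial tRNA clusters, 1.59 for 436 microRNA clusters, −0.47 for 67 small nuclear RNA clusters and −1.44 for 692 small nucleolar RNA clusters. In replicate 2 it was 0.14 for nuclear tRNA clusters, against 2.47 for 16 mitochondrial tRNA clusters, 2.18 for 126 microRNA clusters, −1.64 for 34 small nuclear RNA clusters and −2.34 for 372 small nucleolar RNA clusters. The order of the 5 medians was the same in both replicates. By the share of enriched clusters the order differed: in replicate 1 nuclear tRNA had 20.8%, against 85.7% for mitochondrial tRNA, 19.3% for microRNA, 10.4% for small nuclear RNA and 0.3% for small nucleolar RNA clusters. In replicate 2 nuclear tRNA had 0%, against 43.8% for mitochondrial tRNA, 19.8% for microRNA, 5.9% for small nuclear RNA and 0% for small nucleolar RNA clusters. Nuclear tRNA genes had 6 reproducible peaks over 429 genes, against 8 over 22 for mitochondrial tRNA genes, 5 over 1913 for microRNA genes and 0 for small nuclear and small nucleolar RNA genes.

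**Figure D5:**
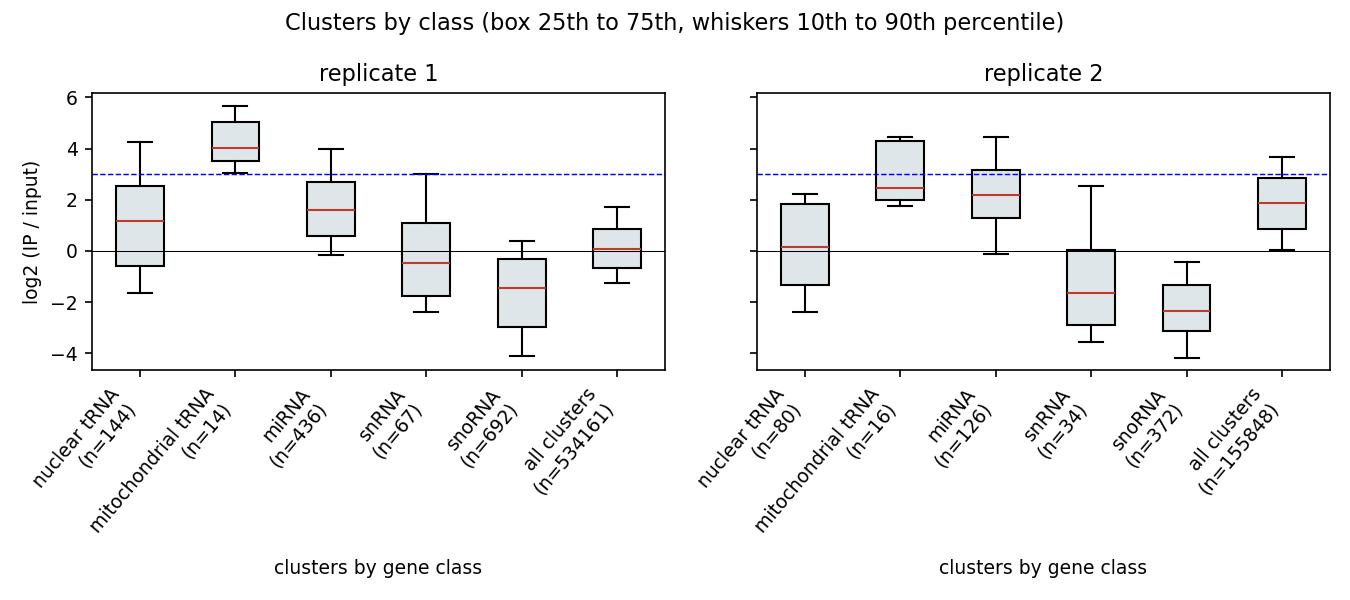
Log2 ratio of IP to input (vertical axis) for clusters in nuclear tRNA genes, in 4 other classes of small RNA gene and over all clusters, with replicate 1 on the left and replicate 2 on the right. Boxes run from the 25th to the 75th percentile with the median in red, whiskers from the 10th to the 90th, and the dashed line is a log2 fold of 3; the nuclear tRNA median lies above that of all clusters in replicate 1 (1.16 against 0.07) and below it in replicate 2 (0.14 against 1.85).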

How the data were processed

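The authors deposited 3 peak lists on GRCh38, 1 per replicate and 1 of reproducible peaks, made from 2 IP and 2 input libraries. The submitters' processing notes name the trimmer cutadapt (1.9) and the aligner STAR (2.4.0i). The sources used here do not give the peak caller, the treatment of multiply mapped reads or the way replicates were combined. In the deposited lists each row holds a −log10 p (capped at 400) and a log2 ratio of IP to input, both by the authors, per peak; p-values were not recomputed for any result. Rows were assigned to RefSeq tRNA genes by midpoint with Python 3.11.15, pandas 2.3.3, numpy 2.4.6 and scipy 1.17.1; 14 tRNA gene rows placed on other sequences were left out of 443. Read numbers were recovered as the ratio of whole numbers (tolerance 1e-10) whose Yates chi-square or exact binomial p matched the deposited one, with the commonest fold read as 3 IP reads to 1 input read, which matched for 98.3% and 99.7% of 1000 sampled clusters. IP depth over input was then 3.3271 and 0.5532; the total depth of each library is not known. Recovery was tested on simulated data. Genes named are those with reproducible peaks, the 10 highest among enriched genes, and the 5 lowest per replicate; TRR-TCT1-1, TRS-GCT3-1, TRU-TCA1-1, TRE-TTC4-2 and the copies compared were chosen after their values were seen. The members, lists and thresholds were chosen with earlier results of these data known. No test across samples was made, since each cluster has 1 value per replicate. Alternatives varied the thresholds, the assignment rule, the strand, the unit counted and the replicates. tRNA sequences were not used here.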

Additional observations from a re-analysis of the deposited data

How the results depend on the processing

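Of 44 recomputed values, 39 stayed within 1.5 times the count, or within 1 SD between replicates of the median; 35 of these kept their sign and 4 did not. With a log2 fold of at least 4, 16 clusters of replicate 1 were enriched in place of 30. With a log2 fold of at least 2, 16 clusters of replicate 2 and 5 genes in both replicates were enriched in place of 0. That threshold is close to the median of 1.85 over all replicate 2 clusters. With whole clusters inside the gene, the replicate 2 tRNA median was 1.82 in place of 0.14, beside 1.85 over all clusters. The clusters kept by that rule in replicate 2 were mostly in arginine genes and TRU-TCA1-1. The 4 changes of sign were of the replicate 2 tRNA median. It was below 0 when taken per gene (−0.52), per set of identical copies (−0.48) and without arginine genes (−0.52). It was also below 0 over ratios with at least 5 input reads in lowest terms (−0.01). Leaving out a replicate left 0 to 12 genes enriched, 0 of them without replicate 1, and 52 to 72 genes with a cluster. Keeping gene rows on other sequences and leaving out arginine were chosen after seeing the data. No paired analysis was possible because the results come from no test; each deposited fold already sets an IP library against the input of the same number. Depth limits clusters with 1 or 2 input reads, whose intervals span several log2 units.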
